A study of Mus musculus with 6 samples.

Results

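The nuclear genes of respiratory complexes II to V were compared between midbrain dopaminergic neurons that express Sox6 and those that do not, both from the pars compacta of the substantia nigra (SNc). Members were all gene symbols of the deposited table that begin with Sdha, Sdhb, Sdhc, Sdhd, Sdhaf, Uqcr, Cox4 to Cox8 or Atp5, together with Cyc1 and Cycs, whose normalized read count averaged at least 10 over all libraries. The table has 23337 symbols, of which 52 matched, and 48 of these were among the 13175 genes that reached the minimum. By function 6 of the 48 belong to complex II, 9 to complex III, 1 is cytochrome c, 14 belong to complex IV and 16 to complex V. The other 2, Atp5sl and Cox4nb, match by name alone: they are also known as Dmac2, an assembly factor of complex I, and Emc8, a subunit of a protein complex of the endoplasmic reticulum. They stay out of all counts over the remaining 46. Below the minimum lay Cox4i2 with 20 reads over all libraries, Cox7b2 with 39 reads, and Cox8b and Cox8c, both listed at 0 in every library.

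All libraries came from adult mice of the C57BL/6 strain that carried 3 alleles (RC-Frepe as the reporter, with Th-2A-Flpo and Sox6-FSF-Cre as drivers), so no group lacks an allele that the other has. Neurons were dissociated with papain and sorted by fluorescence: GFP marked neurons that express Sox6 (Sox6+), and mCherry marked those that do not (Sox6-). Both groups had 3 libraries with the numbers 103, 825 and 1211, and the labels say neither what a number marks nor whether a library holds 1 animal or a pool, so a p-value here reflects only how these samples vary among themselves. Sox6 is a transcription factor, and Th, tyrosine hydroxylase, makes the precursor of dopamine. A reporter switched by recombination stays switched, so the colour records recombinase expression up to the sort and not only at that moment, and Flp acts in any cell in which the Th allele is or was active.

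Mitochondria make most ATP of a neuron by passing electrons along protein complexes of the inner membrane. Complex II oxidizes succinate, complex III passes electrons from ubiquinol to cytochrome c, complex IV (cytochrome c oxidase) passes them on to oxygen, and complex V (ATP synthase) uses the proton gradient built on the way to make ATP. Complexes III, IV and V join a few subunits coded by mitochondrial DNA to many coded in the nucleus, whereas complex II is coded in the nucleus alone. Dopaminergic neurons of the SNc are pacemaking cells with very large axons and a high demand for ATP, and inhibition of the respiratory chain is a known way to damage them.

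Nuclear respiratory genes are known targets of the transcription factors NRF1, GABPA and YY1, and the start sites of several members hold their core letters. RefSeq promoter windows on GRCm38.p6, from 250 bases before to 50 bases after a start site, were found by symbol for 37 of the 46 members. Both strands were searched for CGCATGCG (NRF1, the same on both strands), CCGGAAGT (GABPA) and AAGATGGC (YY1), and none of these strings lies inside another. The NRF1 letters were present for 8 of 37 members (21.6%) and for 2.07% of all 27025 genes with such a window. GABPA letters were present for 4 members (10.8%, all genes 4.31%) and YY1 letters for 3 (8.11%, all genes 3.19%). Any of them was found for 13 members (35.1%, all genes 9.03%): Atp5f1, Atp5g2, Atp5h, Atp5j, Atp5j2, Atp5k, Atp5l, Cox6a1, Cox8a, Cycs, Uqcr11, Uqcrc1 and Uqcrh. The stretches below, all upstream of the start site, are examples from complexes III and IV and cytochrome c, and not every match is shown. Capitals mark the matched letters, which in Uqcrh are the reverse complement of those searched.
Cycs (NRF1, chr6:50566603-50566650, minus strand): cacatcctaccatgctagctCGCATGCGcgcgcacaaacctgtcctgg
Cox6a1 (NRF1, chr5:115349092-115349139, minus strand): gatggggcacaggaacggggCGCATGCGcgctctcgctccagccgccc
Uqcr11 (GABPA, chr10:80406860-80406907, minus strand): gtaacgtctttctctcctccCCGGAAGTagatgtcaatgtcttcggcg
Uqcrh (GABPA, chr4:116075071-116075101, minus strand): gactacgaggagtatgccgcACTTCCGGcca
The matches are descriptions of the letters, not evidence that a factor binds there.

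Each library held between 10397924 and 12952768 reads, and from 13429 to 15043 genes had a read. Values of a group's libraries are given throughout in the order 103, 825 and 1211, as normalized read counts. The dopaminergic label was checked with 9 markers (Th, Slc6a3, Slc18a2, Ddc, Drd2, Pitx3, Nr4a2, En1 and Foxa2), all present in the table and higher on average in Sox6+ neurons. Their summed normalized count ran from 102830 to 200026 in the Sox6+ libraries and from 37767 to 128691 in the Sox6- libraries, where library 825 was the high one. The 7 GABAergic markers summed to 765 to 9512 in Sox6+ and 5290.1 to 18208 in Sox6- libraries. Among them Sst, a neuropeptide, lay at 1.97, 0 and 0 in the Sox6+ libraries and 3958, 3164 and 5814 in the Sox6- libraries (limma, adjusted p = 3.31e-05). The 2 glutamatergic markers summed to 163 to 999 in Sox6+ and 2237 to 4815 in Sox6- libraries, without overlap. Of these Slc17a6, a vesicular glutamate transporter, lay at 873, 163 and 764 in the Sox6+ libraries and 2496, 2237 and 4815 in the Sox6- libraries (limma, adjusted p = 0.266; 0.0438 in the authors' deposited table). The 11 microglia and macrophage markers summed to 28005 in Sox6+ library 825 and to at most 42.5 in the other libraries, with Lyz2 making up most of it and Tmem119 at 0 throughout. Astrocyte markers (7, with Gja1 at 0 in all libraries) summed to 383 to 994 in Sox6+ and 392 to 611 in Sox6- libraries. Oligodendrocyte markers (7, with Olig2 at 0) summed to 2008 in Sox6+ library 825 and to 264 to 389 in the other libraries. The 4 endothelial markers did not exceed 21.6, with Cldn5 and Cdh5 at 0, and the 3 erythrocyte markers were at 0. Sox6+ library 825 stood apart by these markers and Sox6- library 1211 by its low level of the members, and the counts over the members are also given without them.

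Transcripts of the respiratory complexes lay slightly higher in Sox6+ than in Sox6- neurons, across nearly all members and by a small amount. Of the 46 members, 43 (93.5%) had a log2 difference above 0 on the log2(value + 1) scale, against 48.1% of all genes tested and 62.2% of tested genes with a mean of at least 1000. Their median difference was 0.23, against -0.02 over all tested genes and 0.08 over those with a mean of at least 1000. Below 0 lay Sdha, Cox6a2 and Atp5g2. In 20 members every Sox6+ library lay above every Sox6- library (43.5%, all tested genes 7.86%, tested genes with a mean of at least 1000 12%), and in 0 members the groups were apart the other way (all tested genes 9.19%). No single member passed the test. Limma called 17 genes higher (0.129%) and 23 lower (0.175%) in Sox6+ neurons at an adjusted p of 0.05, and 0 of the 46 members were among them; the lowest adjusted p of a member was 0.277, for Atp5g1. At an unadjusted p of 0.05, limma had 10 members higher (all tested genes 5.21%) and 1 lower (all tested genes 6.17%). With edgeR 0 members passed, and 6 of all tested genes did, while 10 members had an unadjusted p under 0.05 (all tested genes 10%). With DESeq2 1 member, Cox6a2, passed, and 387 of all tested genes did, while 15 members had an unadjusted p under 0.05 (all tested genes 11.7%). In bulk RNA, fewer cells of a type and less RNA per cell cannot be told apart, and the part of the dopaminergic, GABAergic and glutamatergic marker levels in these differences was not tested.

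**Figure D1:**
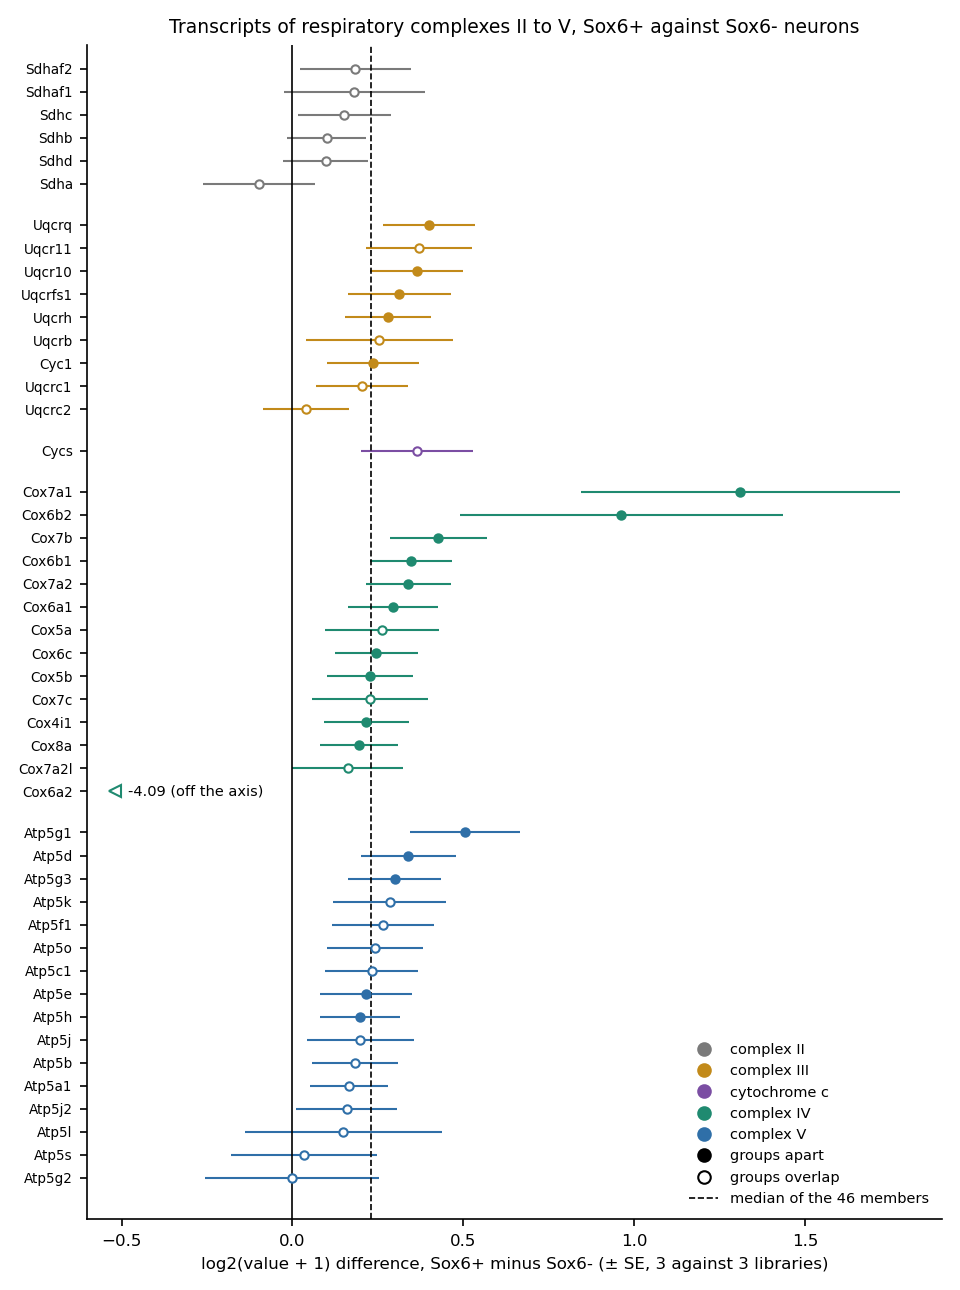
Difference of each member between Sox6+ and Sox6- neurons, in log2(value + 1), with limma's standard error over 3 against 3 libraries, by complex. Filled points mark the 20 members whose groups do not overlap, the dashed line is the median of 0.23, and Cox6a2 lies off the axis at -4.09 (its error is not drawn).

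The direction held within each library number, and its size depended on Sox6- library 1211. Within number 103, 41 of 46 members were higher in the Sox6+ library, with a median difference of 0.15. Within number 825 there were 39 with a median of 0.17, and within number 1211 there were 44 with a median of 0.39. Tested genes with a mean of at least 1000 had medians of 0.05, 0.02 and 0.14 within 103, 825 and 1211, thus also largest within 1211. Higher within all 3 numbers were 37 members, against 19.0% of all tested genes and 829 of the 2490 tested genes with a mean of at least 1000. Relative to the mean of the libraries, the median member lay at 0.09, 0.13 and 0.13 in Sox6+ libraries 103, 825 and 1211 and at -0.05, -0.07 and -0.25 in the Sox6- libraries in that order. Sox6- library 1211 held the lowest of all values in 36 of the 46 members. Without it, 41 members were still above 0 and 20 still had groups apart (all tested genes then 10.5%), but the median was 0.16. In limma 1 member then had an unadjusted p under 0.05, and the share of all tested genes is not given here. Without Sox6+ library 825 there were 44 members above 0, and 25 had groups apart (all tested genes 12.1%). The scaling also mattered: after quantile normalization 41 members were above 0, with a median of 0.14.

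**Figure D2:**
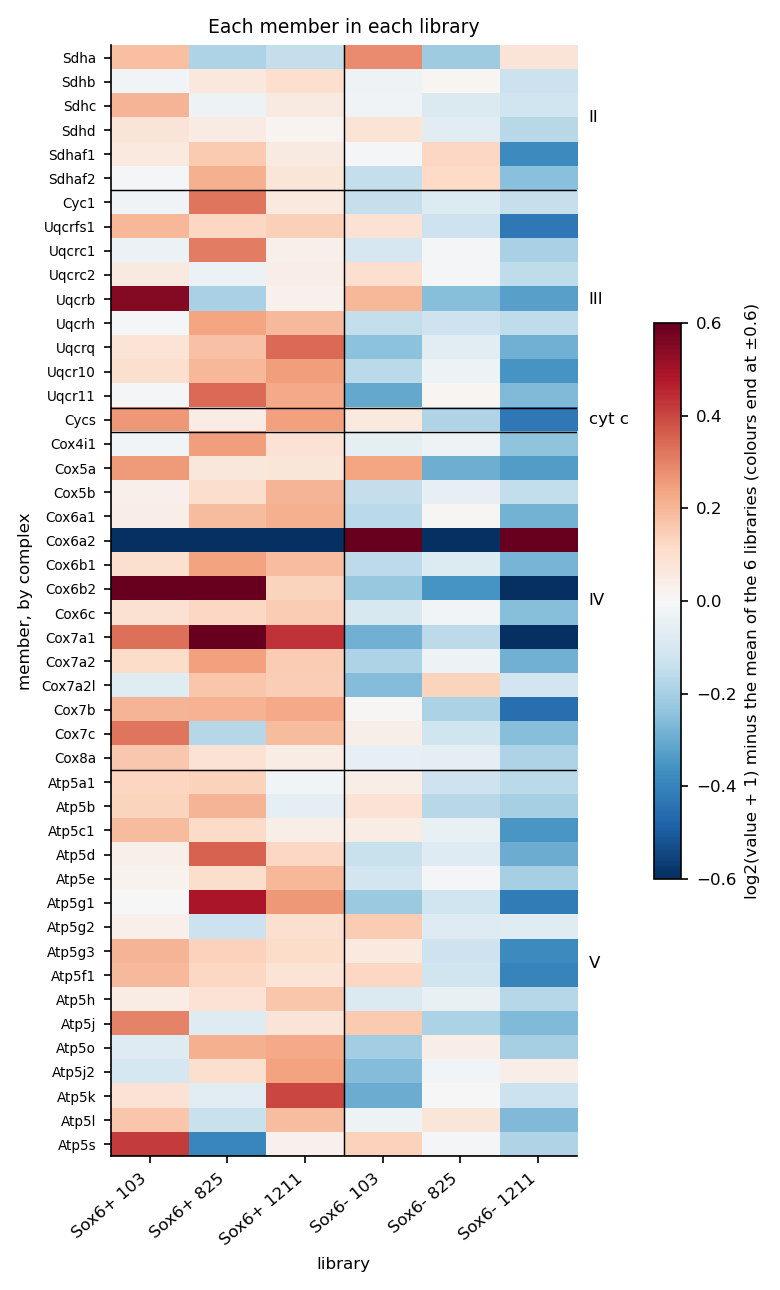
Each of the 46 members (rows, by complex) in each library (columns), as log2(value + 1) minus its mean over all libraries, red above and blue below. The Sox6+ columns are mostly red and the column of Sox6- library 1211 is mostly blue, while Cox6a2 is the row that departs from the others.

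As a share of all reads in genes, the 46 members took 2.70%, 2.68% and 2.55% of Sox6+ libraries 103, 825 and 1211 and 2.55%, 2.37% and 2.22% of the Sox6- libraries. The lowest Sox6+ library and the highest Sox6- library were thus level at 2.55%. Complex II alone took 0.23665%, 0.21395% and 0.21383% of the Sox6+ libraries and 0.2437%, 0.21408% and 0.22061% of the Sox6- libraries. Its share was thus not higher in the Sox6+ library within any number, whereas those of complexes III, IV and V were higher within every number. This rested on the catalytic subunits Sdha and Sdhb. Together they took 0.149%, 0.131% and 0.133% of the Sox6+ libraries and 0.158%, 0.133% and 0.145% of the Sox6- libraries. The shares of the membrane anchors and of the assembly factors of complex II were higher in the Sox6+ library within every number. Members were also steady among libraries of a group: the median coefficient of variation was 8.18% in Sox6+ and 10.3% in Sox6- libraries, while for tested genes with a mean of at least 1000 it was 13.6% and 12.6%. By complex, the median difference was 0.13 in complex II, 0.28 in complex III, 0.25 in complex IV and 0.21 in complex V. Values above 0 were found in 5 of 6, 9 of 9, 13 of 14 and 15 of 16 members. Groups were apart in 0, 5, 10 and 5 members of complexes II, III, IV and V. Complex II includes its assembly factors, whereas assembly factors of complexes III to V were read as a separate list. No test of complex II against the others was made.

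**Figure D3:**
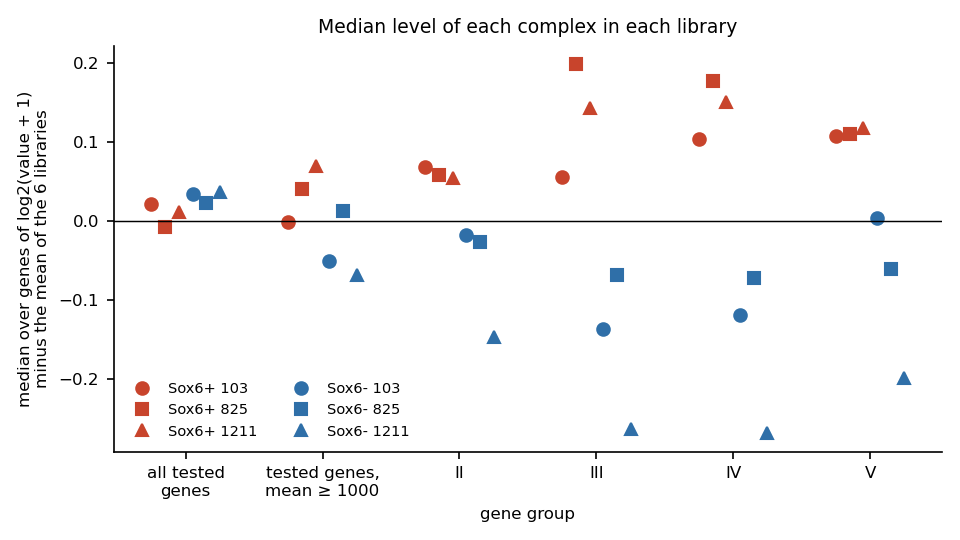
Median over genes of log2(value + 1) minus the mean of all libraries, for each library (red Sox6+, blue Sox6-; the symbol gives the number) and gene group. For complexes III to V, as for complex II, the 3 Sox6+ libraries lie above the 3 Sox6- libraries and Sox6- library 1211 is lowest, whereas the libraries lie close together over all tested genes.

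Complex II, which also runs the step of the citric acid cycle from succinate to fumarate, had the smallest median difference. Sdha, the flavoprotein that oxidizes succinate, had normalized counts of 9243, 7158 and 7382 in the Sox6+ libraries and 9900.5, 7035 and 8587 in the Sox6- libraries. The groups overlapped, with number 103 highest in both, and the log2 difference was -0.10 ± 0.16 (SE). Sdhb, the iron-sulfur subunit, lay at 7923, 8376 and 8574 in the Sox6+ libraries and 7833, 8062 and 7317 in the Sox6- libraries. Its difference was 0.10 ± 0.12 and was -0.02 after quantile normalization. The membrane anchors overlapped between groups as well. Sdhc had 2675, 2276 and 2414 in the Sox6+ libraries and 2290.0, 2190.4 and 2136 in the Sox6- libraries, and Sdhd had 5623, 5518 and 5393 in the Sox6+ libraries and 5645, 5097 and 4756 in the Sox6- libraries; their differences were 0.15 ± 0.14 and 0.10 ± 0.13. The assembly factors had the largest differences of this complex. Sdhaf1, which serves the iron-sulfur subunit, had 523, 559 and 521 in the Sox6+ libraries and 497, 546 and 385 in the Sox6- libraries. Sdhaf2, which attaches FAD to Sdha, had 1235, 1444 and 1311 in the Sox6+ libraries and 1128, 1351 and 1046 in the Sox6- libraries. In both, the lowest value was that of Sox6- library 1211, and their differences were 0.18 ± 0.21 and 0.18 ± 0.16. Limma's adjusted p ran from 0.7 to 0.855 over the 6 genes.

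In complex III all 9 members lay higher in Sox6+ neurons, with a median of 0.36 for the small supernumerary subunits and 0.22 for the catalytic and core subunits. Uqcrq, a small subunit also known as a ubiquinone-binding protein, had 4807, 5136 and 5755 in the Sox6+ libraries and 3836, 4334 and 3723 in the Sox6- libraries (chr11:53427922-53430831 on GRCm38). Every Sox6+ library was above every Sox6- library, and the log2 difference was 0.40 ± 0.13 (limma, adjusted p = 0.305). Uqcr10, another small subunit, had 4855, 5219 and 5415 in the Sox6+ libraries and 4071, 4446 and 3559.5 in the Sox6- libraries, also without overlap, with a difference of 0.36 ± 0.14. Uqcr11 lay at 2767, 3527 and 3270.4 in the Sox6+ libraries and 2258, 2818 and 2326 in the Sox6- libraries: Sox6+ library 103 was below Sox6- library 825, and the difference was 0.37 ± 0.16. The hinge protein gene Uqcrh, whose promoter stretch is shown above, was at 4568, 5405 and 5247 in the Sox6+ libraries and 4155, 4212 and 4138 in the Sox6- libraries, with groups apart and a difference of 0.28 ± 0.13. Uqcrb, at 6016, 3594 and 4183 in the Sox6+ libraries and 4722, 3448 and 3276 in the Sox6- libraries, overlapped and was highest in number 103 of both groups, and its error, 0.22, was close to its difference, 0.25.

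Among the catalytic subunits of complex III, Uqcrfs1, the Rieske iron-sulfur protein, had 6756, 6426 and 6502 in the Sox6+ libraries and 6242, 5405 and 4372 in the Sox6- libraries. The groups were apart by a narrow margin between number 825 of Sox6+ and number 103 of Sox6- neurons, and the difference was 0.31 ± 0.15. Cyc1, cytochrome c1, had 5742, 7285 and 6069.6 in the Sox6+ libraries and 5307, 5519.7 and 5308 in the Sox6- libraries. Its groups were apart as well, its Sox6- values were close together, and its difference was 0.24 ± 0.13. The core proteins overlapped: Uqcrc1 had 8881, 11272 and 9302 in the Sox6+ libraries and 8486, 9037 and 7953 in the Sox6- libraries, and Uqcrc2 had 6098, 5722 and 6027 in the Sox6+ libraries and 6289, 5844 and 5277 in the Sox6- libraries. Their differences were 0.20 ± 0.13 and 0.04 ± 0.13, the latter the smallest of the complex. Cycs, cytochrome c itself, carries electrons from complex III to complex IV and starts apoptosis when released. It lay at 2594, 2235 and 2568 in the Sox6+ libraries and 2260.2, 1915 and 1610.0 in the Sox6- libraries. Only Sox6+ library 825 fell within the Sox6- range, just under Sox6- library 103, and the difference was 0.36 ± 0.16 (limma, adjusted p = 0.442).

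In complex IV, 13 of 14 members lay higher in Sox6+ neurons, 10 of them with groups apart, and the 1 exception, Cox6a2, had the largest difference of all members. The subunits measured here surround a catalytic core of 3 subunits coded by mitochondrial DNA. Cox7b had 8340.1, 8381 and 8479 in the Sox6+ libraries and 7279, 6343 and 5286 in the Sox6- libraries (chrX:106015700-106022450 on GRCm38), a mean of 8399.9 ± 71.3 against 6303 ± 997 (SD, n = 3 each). The Sox6+ libraries were nearly equal and all above the Sox6- libraries, and the difference was 0.43 ± 0.14 (limma, adjusted p = 0.296). Cox4i1, the general isoform of subunit 4, had the most reads per kb of the complex and lay at 14254, 17189 and 15335 in the Sox6+ libraries and 13912, 14128 and 12194 in the Sox6- libraries. These groups were apart too, with a difference of 0.22 ± 0.13, although Cox4i1 and Cox4nb overlap by 352 bases on opposite strands and the strand setting of the counting is not given in the sources used here. Cox5b (0.23), Cox6c (0.25) and Cox8a (0.19) had groups apart, while Cox5a (0.26), Cox7c (0.23) and Cox7a2l (0.16), a factor that joins complexes III and IV in supercomplexes, overlapped.

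Several subunits of complex IV have a general isoform and 1 known from heart, muscle or testis, and the latter were low here and differed in direction. Cox7a1, the heart and muscle isoform of subunit 7A (chr7:30184144-30186078), had 133, 244 and 143 in the Sox6+ libraries and 86.3, 94.7 and 36.2 in the Sox6- libraries. Every Sox6+ library lay above every Sox6- library, and the difference was 1.31 ± 0.47 (limma, adjusted p = 0.336). The general isoform Cox7a2 had 7976, 8763 and 8199 in the Sox6+ libraries and 6493, 7222 and 6046 in the Sox6- libraries, also without overlap, and a difference of 0.34 ± 0.12. Divided by transcript length, Cox7a1 made up 3.34% ± 0.97 of both isoforms together in Sox6+ and 1.78% ± 0.68 in Sox6- neurons (SD, n = 3 each). Cox6b2, known as the testis isoform of subunit 6B (chr7:4751792-4753094), had 83.9, 84.3 and 58.2 in the Sox6+ libraries and 45.1, 41.3 and 28.8 in the Sox6- libraries. Its groups were apart, with a difference of 0.96 ± 0.47. Cox6b1, the general isoform, had 8524, 9410.2 and 9045 in the Sox6+ libraries and 7145, 7518 and 6569 in the Sox6- libraries, with groups apart and a difference of 0.35 ± 0.12 (limma, adjusted p = 0.319). Cox6b2 made up 1.10% ± 0.23 of the pair per length in Sox6+ and 0.712% ± 0.127 in Sox6- neurons.

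Cox6a2, the heart and muscle isoform of subunit 6A (chr7:128205435-128206387), went the other way. Its reads numbered 3, 0 and 0 in the Sox6+ libraries and 66, 2 and 107 in the Sox6- libraries, which gives normalized counts of 2.96, 0 and 0 against 63.3, 2.01 and 99.2. Sox6- library 825 thus lay at the level of Sox6+ library 103, and the groups overlapped. The gene reached the minimum through its Sox6- libraries alone. With the reads of each group pooled, Cox6a2 was 58.7 times as frequent per read sequenced in Sox6- neurons, a description only. The 95% exact interval of 19.8 to 287 covers counting error and not the spread among libraries, so it is no test of the groups. That ratio rests on few libraries: leaving out Sox6- library 1211 gave 34.6, leaving out Sox6+ library 1211 gave 37.0, and leaving out Sox6- library 825 gave 85.9. With Sox6+ library 103 left out, no Sox6+ read remained. Limma gave a difference of -4.09 ± 1.68 with an adjusted p of 0.408, and edgeR an adjusted p of 0.338, whereas DESeq2 on the recovered reads gave 0.0294. In the authors' deposited table, where 2.83% of 14519 genes have an adjusted p under 0.05, Cox6a2 is the 1 member that does, with a log2 fold change of 5.78 for Sox6- over Sox6+ and an adjusted p of 0.0232. The general isoform Cox6a1 had 6728, 7456 and 7592 in the Sox6+ libraries and 5842, 6575 and 5375 in the Sox6- libraries, with groups apart and a difference of 0.29 ± 0.13, and made up between 98.5% and 100% of the pair per length.

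Markers of other cells were followed beside Cox6a2 and gave no single pattern. Gad2, an enzyme that makes GABA and chosen after its values were seen, was at 1679, 0 and 193 in the Sox6+ libraries and 3580.3, 646 and 3522 in the Sox6- libraries: Sox6- library 825, poor in Cox6a2, was also the Sox6- library lowest in Gad2, while Sox6+ library 103 had Gad2 with hardly any Cox6a2. Sst and Slc17a6, given above, were not low in Sox6- library 825 to the degree that Cox6a2 was. Of the 5 muscle markers, Tnnt2, a troponin, was at 0, 0 and 0 in the Sox6+ libraries and 68.1, 76.5 and 171 in the Sox6- libraries (limma, adjusted p = 0.0459) and thus not low in Sox6- library 825. Acta1, the other marker of this list that reached the minimum, had 172, 169 and 166 in the Sox6+ libraries and 236, 136 and 167 in the Sox6- libraries. Its groups overlapped, with a difference of -0.05 ± 0.31. Des was at 0 in all libraries, and the list summed to 167 to 183 in Sox6+ and 213 to 349 in Sox6- libraries. The part of other cells in the Cox6a2 values was not tested.

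**Figure D4:**
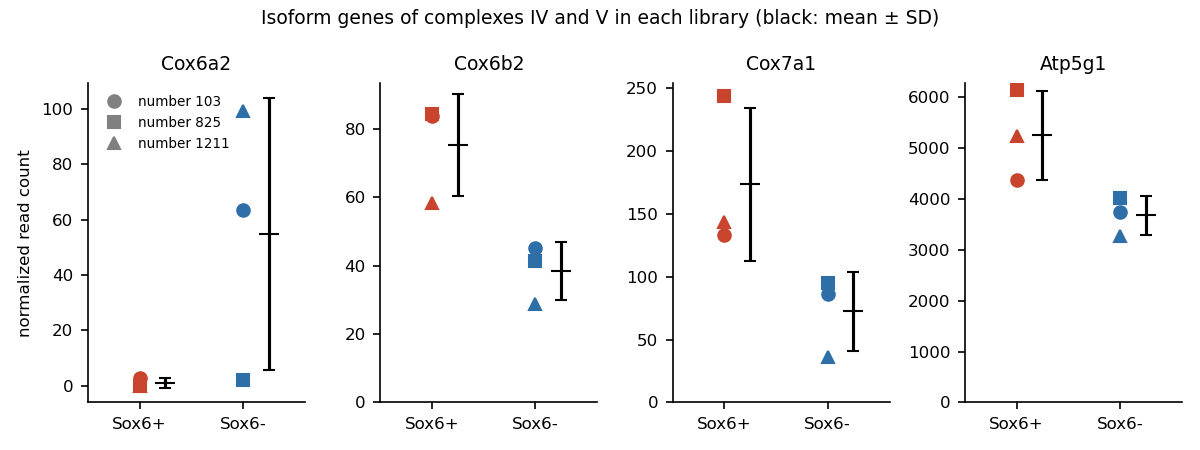
Normalized read counts of Cox6a2, Cox6b2, Cox7a1 and Atp5g1 in each library (points, symbols by number) with mean ± SD of 3 libraries per group in black. Cox6b2, Cox7a1 and Atp5g1 are higher in every Sox6+ library, and Cox6a2 is high in Sox6- libraries 103 and 1211 and near 0 in the other libraries.

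In complex V the gene with the lowest p of all members was Atp5g1, 1 of 3 genes that code for the same mature c subunit of the membrane ring, which turns as protons pass. Atp5g1 (chr11:96068852-96075670) had 4381, 6138 and 5237 in the Sox6+ libraries and 3744, 4026 and 3270.1 in the Sox6- libraries, a mean of 5252 ± 878 against 3680.2 ± 382 (SD, n = 3 each). Every Sox6+ library lay above every Sox6- library, and the log2 difference was 0.50 ± 0.16 (limma, adjusted p = 0.277; exact 2-sided permutation p = 0.1, the smallest that 3 against 3 libraries allow). Atp5g3, the main c subunit gene, had 16095, 15391 and 15092 in the Sox6+ libraries and 14565, 12850.1 and 10730.4 in the Sox6- libraries, without overlap, and a difference of 0.30 ± 0.14. Atp5g2 had 211, 189 and 222 in the Sox6+ libraries and 230.2, 196 and 197 in the Sox6- libraries, overlapped fully and had a difference of -0.0021, whose sign turned under several other settings. Per length, Atp5g1 made up 28.3% ± 3.9 of the 3 genes in Sox6+ and 25.4% ± 2.0 in Sox6- neurons, Atp5g3 70.2% ± 3.8 and 72.7% ± 2.0, and these shares overlapped between groups. The share of Atp5g2 was small and lower in every Sox6+ library, at 1.58%, 1.33% and 1.65% against 1.92%, 1.77% and 2.13%.

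The catalytic head of complex V had differences below the median of the members. Atp5b, the beta subunit with the catalytic sites, and Atp5a1, the alpha subunit, had differences of 0.18 ± 0.13 and 0.17 ± 0.11, and both overlapped: Atp5b lay at 39213, 41122 and 34257 in the Sox6+ libraries and 37949, 31879 and 31147 in the Sox6- libraries. In the central stalk, which turns with the ring, Atp5d, the delta subunit, had 5379, 6717 and 5741 in the Sox6+ libraries and 4799.6, 4987 and 4279 in the Sox6- libraries, with groups apart and a difference of 0.34 ± 0.14. Atp5e (0.22), the epsilon subunit, also had groups apart, and Atp5c1 (0.23), the gamma subunit, did not. In the peripheral stalk, which holds the head still, Atp5h (0.20), the d subunit, had groups apart, and Atp5f1 (0.26, b subunit), Atp5j (0.20, coupling factor 6) and Atp5o (0.24, which confers sensitivity to oligomycin) overlapped. The membrane subunits f, e and g, coded by Atp5j2 (0.16), Atp5k (0.28) and Atp5l (0.15), overlapped as well. Atp5s, also known as Dmac2l, had 1867, 1066 and 1420.4 in the Sox6+ libraries and 1537, 1389 and 1232 in the Sox6- libraries. It was highest in Sox6+ library 103 and lowest in Sox6+ library 825, and its difference was 0.03 ± 0.21. Of the 2 genes that match by name alone, Atp5sl had a difference of 0.25 ± 0.17 and Cox4nb of -0.21 ± 0.21, with overlapping groups.

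Levels can be compared between genes only per transcript length, here the normalized count over all libraries per kb of the shortest principal transcript in GENCODE M21. The median member lay at 1784 per kb in complex II, 6354 in complex III, 9324 in complex IV and 6864 in complex V. The highest members were Sdhb (7018), Uqcrq (11355), Cox4i1 (19466) and Atp5g3 (19777), 1 for each complex, and Cycs was at 704. Atp5l (296) and Atp5g2 (471) were the lowest of complex V. Atp5l has 3 annotated processed pseudogenes, and Uqcrh, Cycs, Cox6c, Atp5c1 and Atp5k have at least 1 each, so reads of these genes may have been lost or shared, and their levels are uncertain. The 28 members with a transcript under 1 kb had a median log2 difference of 0.26 with groups apart in 17 (60.7%). The 18 longer ones had 0.18 with groups apart in 3 (16.7%), near the 12% of tested genes with a mean of at least 1000. All members of complex II are among the longer ones, with transcripts of 1142 to 3171 bases. The part of length in the differences between complexes was not tested. These are descriptions without a test.

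**Figure D5:**
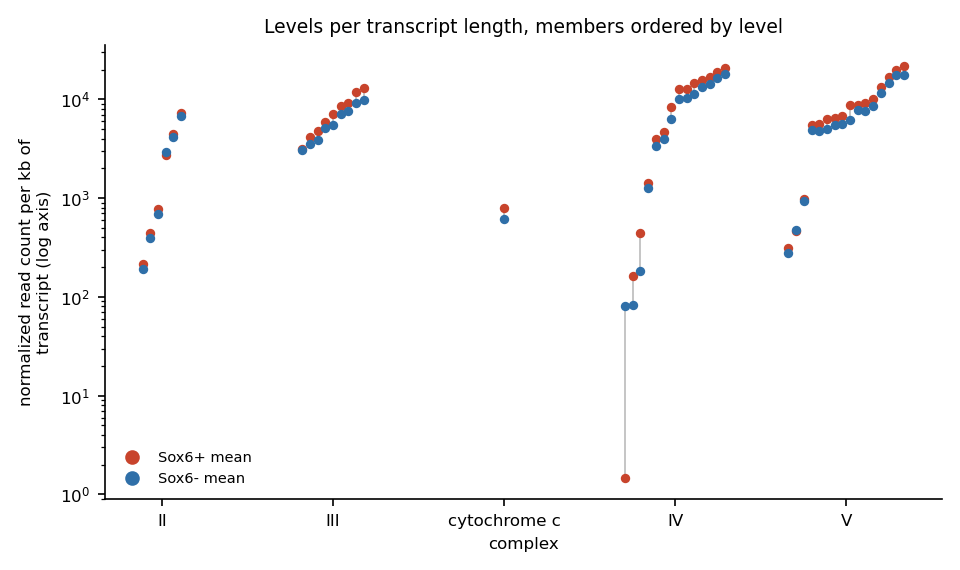
Mean normalized read count per kb of transcript (log axis) of each member in Sox6+ (red) and Sox6- (blue) neurons, ordered by level within each complex. Members span from 41.1 (Cox6a2) to 19777 (Atp5g3) over all libraries, and for most of them the distance between groups is small beside the distance between members.

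The 46 members lie on 19 chromosomes, and few are neighbours. Within 500 kb of each other are Cox7a1, Sdhaf1 and Cox6b1 on chromosome 7 and Atp5d and Uqcr11 on chromosome 10. On chromosome 7 the differences were 1.31, 0.18 and 0.35, and on chromosome 10 they were 0.34 and 0.37.

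Further lists were read in the same fit: assembly factors, carriers and pores, transcription regulators, the citric acid cycle and cytosolic ribosomal proteins. Of their genes, 0 passed the adjusted threshold in limma, in edgeR or in DESeq2. At an unadjusted p of 0.05 these tools had 5, 6 and 8 of the 152 tested genes (3.29%, 3.95% and 5.26%), below the 11.4%, 10% and 11.7% of all tested genes. The 78 ribosomal proteins are the largest part of the 152, at 1.28% with each tool. The 10 carriers, pores and uncoupling proteins lay above the shares of all tested genes, at 30%, 20% and 40%, and the other lists below. The 13 subunits coded by mitochondrial DNA were not analysed here. Of 34 tested assembly factors of complexes III to V (36 in the list), 23 lay above and 11 below 0, with a median difference of 0.18, and 1 had an unadjusted p under 0.05. That 1 was Cox16, which helps to mature complex IV, with 1209.5, 1082 and 1268 in the Sox6+ libraries and 897, 851 and 784 in the Sox6- libraries. Its groups were apart, with a difference of 0.49 ± 0.16 (limma, adjusted p = 0.282). Higd1a, which binds complex IV, had a difference of 0.39 ± 0.18, and Surf1, which acts early in the assembly of complex IV, of -0.31 ± 0.14, with all Sox6+ libraries below all Sox6- libraries. Pet100, another assembly factor of complex IV, listed under an older name, had a difference of 0.54.

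Of 10 tested carriers, pores and uncoupling proteins (12 in the list), 8 lay above 0, with a median of 0.23; 2 had an unadjusted p under 0.05 above 0 and 1 below. Vdac1, the main pore of the outer membrane, had 10357, 10999 and 10661 in the Sox6+ libraries and 9213, 6611 and 6770.3 in the Sox6- libraries. The groups were apart, and the difference was 0.52 ± 0.15 (limma, adjusted p = 0.231). Slc25a5, an exchanger of ADP for ATP, had 8145, 7611 and 7617 in the Sox6+ libraries and 7759, 4259 and 4238 in the Sox6- libraries, a difference of 0.58 ± 0.22, with number 103 of Sox6- neurons at the Sox6+ level. Slc25a4, another such exchanger, was at 0.24 ± 0.11. Slc25a14, a brain uncoupling protein, was lower in every Sox6+ library, at 1621, 1209 and 1562 against 2061, 1930.5 and 2142, with a difference of -0.49 ± 0.16 (limma, adjusted p = 0.285).

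Of 14 regulators of respiratory gene transcription, 10 lay above 0, with a median of 0.24, and 0 had an unadjusted p under 0.05. Gabpa and Gabpb1, the subunits of the factor whose letters are shown for Uqcr11 and Uqcrh, pointed in opposite directions: Gabpa had 184, 169 and 93.3 in the Sox6+ libraries and 110.3, 83.6 and 64.0 in the Sox6- libraries, and Gabpb1 had 185, 153 and 221 in the Sox6+ libraries and 247, 262 and 346 in the Sox6- libraries. Gabpa overlapped and Gabpb1 was lower in every Sox6+ library; the differences were 0.76 ± 0.40 and -0.61 ± 0.28. Polrmt, the mitochondrial RNA polymerase, was at -1.24 ± 0.68, and Esrrg, an orphan nuclear receptor, at 1.10 ± 0.61, both with overlap.

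In the citric acid cycle 13 of 16 genes lay above 0, with a median of 0.10, and 0 had an unadjusted p under 0.05 or groups apart. Among those with the smallest p were Pdhb (0.31 ± 0.15), Cs (0.25 ± 0.16) and Ogdh (0.23 ± 0.19). Cytosolic ribosomal proteins, which share with the respiratory subunits short transcripts, lay above 0 in 63 of 78 genes, with a median of 0.11, with groups apart upward in 4 (5.13%, all tested genes 7.86%) and downward in 1 (1.28%, all tested genes 9.19%). The 78 genes took 0.833% to 1.07% of a library, less than the 46 members. Reads of this list lost or shared through pseudogenes were not examined. Rpl3l, with a difference of 2.27 ± 0.85 at normalized counts of at most 44.4, was the 1 with an unadjusted p under 0.05; Rpl39, Rpl22 and Rpl35a were at 0.41, 0.52 and 0.34. Within numbers 103, 825 and 1211 the ribosomal median was 0.12, -0.002 and 0.19, beside 0.15, 0.17 and 0.39 for the 46 respiratory members.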

How the data were processed

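Stranded mRNA libraries were made from the total RNA of the sorted neurons, per the labels' protocols. Tools named in the submitters' processing notes are DESeq2, HTSeq, STAR, cutadapt and FastQC, with GRCm38 and mm10 as builds. Versions and the settings for strand and multi-mapped reads are not given in the sources used. A table was deposited by the authors, with a normalized signal per gene and library: read counts scaled by 1 factor per library, since 100% of values were whole multiples of 1 library step within 0.01. It also holds the authors' mean, log2 fold change of Sox6- over Sox6+, standard error, test score, p-value and adjusted p-value.

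Genes with a mean of at least 10 (13175) were tested with limma (trend and robust moderation, no block, 2-sided) on log2(value + 1), with Benjamini-Hochberg adjustment over all of them at 0.05. This scale understates the change of low genes. EdgeR's quasi-likelihood test and DESeq2 were run on the recovered reads. The fits were tested on simulated data. Groups came from the sample titles. Positions and lengths come from GENCODE M21, promoters from RefSeq. Members, lists, motifs and tests were chosen with earlier results of these data known. Every member is named. Values in every library are given for Sdha to Sdhd, members past the threshold in limma or the authors' table, the largest differences per complex, Cycs, Cyc1, members with isoforms, and the member with most reads per kb. From other lists, genes past the threshold and up to 4 with the smallest p are named, except 1 that is not reported here. Uqcrh, Uqcrb, Uqcrfs1, Uqcrc1, Uqcrc2, Atp5b and Atp5s were added to these after their values were seen. Python 3.11.15 was used with matplotlib 3.10.9, scipy 1.17.1, pandas 2.3.3 and numpy 2.4.6, and R 4.3.3 with DESeq2 1.42.0, edgeR 4.0.16 and limma 3.58.1.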

Additional observations from a re-analysis of the deposited data

How the results depend on the processing

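In none of the alternatives did limma or edgeR call a member, and between 40 and 45 of the 46 members (45 tested at a mean of at least 50) stayed above 0. DESeq2 called 1 member lower, Cox6a2 (-5.78). In the report's limma fit 11 members had an unadjusted p under 0.05 (all tested genes 11.4%). Such members numbered 6 after quantile normalization, 3 without trend and robust moderation, 20 with library weights, 0 without number 1211 and 6 without number 825. Leaving out 1 library gave 1 to 13, the fewest on dropping Sox6- 1211 (1), Sox6+ 1211 (3) and Sox6+ 825 (7). The shares of all tested genes in these other settings are not given here, so the counts are not read as results about the members. Quantile normalization lowered the median difference from 0.23 to 0.1391 over all members, to 0.05327 in complex II, 0.1693 in complex IV and 0.1102 in complex V. Leaving out 1 library moved the complex II median between 0.0497 (without Sox6- library 1211) and 0.1606, and leaving out number 1211 gave 0.05421. Sdhb reversed after quantile normalization (-0.01563). Sdha ran from -0.2275 to 0.01887 when 1 library was left out, above 0 without Sox6- library 103. Atp5g2 ran from -0.05218 to 0.07373 when 1 library was left out, and reversed after quantile normalization (0.04656), with library weights (0.07593) and without number 103 (0.05909) or 825 (0.0242). Leaving out 1 library, an alternative chosen after seeing the data for the count of members with groups apart, gave 20 to 30 members, beside 10.5% to 15.7% of all tested genes and 13.9% to 25.9% of those with a mean of at least 1000. The cause of these changes was not tested. Same-numbered libraries deviated together with correlations of 0.268 (103), 0.172 (825) and 0.0789 (1211), and every library correlated best with its own number. Libraries of different numbers had correlations from -0.236 to 0.0243. The labels do not say what a number marks, so the report's fit has no block and the block is given as an alternative. With the number as a replicate block, limma called 267 genes in place of 40 but 0 members (lowest adjusted p 0.0722), and edgeR called 120 genes in place of 6. In that limma fit 23 members had an unadjusted p under 0.05 (all tested genes 17.2%). Over all genes, limma called 40 in the report's fit. Fewer were called on leaving out Sox6- library 1211 (1), number 1211 (1), number 825 (2), Sox6+ library 1211 (8), Sox6+ library 825 (9) or Sox6- library 825 (18), and without trend and robust moderation (24). More were called with a mean of at least 1 (66), a pseudocount of 8 (69), quantile normalization (69) or library weights (206), on leaving out number 103 (70) or Sox6+ library 103 (161), and by DESeq2 (387).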
